A study of Mus musculus with 10 samples.

Results

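The 9 genes described here encode the superoxide dismutases Sod1, Sod2 and Sod3, catalase (Cat) and the glutathione peroxidases Gpx1, Gpx3, Gpx4, Gpx7 and Gpx8. They were taken by name from 32903 genes that had a transcript in the count table, by summing the RefSeq transcripts of each gene, and all 9 were among the 14597 genes expressed highly enough to be tested. The cells were preadipocytes, the precursors of fat cells, from inguinal subcutaneous fat of male wild-type C57 BL6 mice. RNA was sequenced from 10 libraries. Cells of 5 libraries had received the vehicle DMSO, and cells of the other 5 had received 2.5 µM bisphenol S (BPS), which replaces bisphenol A in many plastics and papers, dissolved in DMSO. All groups shared the strain, sex, depot and vehicle, and no untreated cells without DMSO were part of the comparison. The labels give neither the length of exposure nor the age of the mice. The study's title concerns reactive oxygen species in the action of bisphenols on adipogenesis, and these enzymes are among those that remove superoxide and peroxides.

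Superoxide dismutases turn superoxide into hydrogen peroxide and oxygen, and do so in separate compartments: Sod1 in the cytosol, Sod2 in the mitochondrial matrix and Sod3 outside the cell, bound to heparan sulfate. The hydrogen peroxide formed is broken down by catalase in peroxisomes and reduced to water by glutathione peroxidases. Among these, Gpx1 serves the cytosol and mitochondria, Gpx3 is secreted, Gpx4 reduces lipid hydroperoxides within membranes, and Gpx7 and Gpx8 lie in the endoplasmic reticulum. Gpx1, Gpx3 and Gpx4 carry selenocysteine, an amino acid that is encoded by the codon UGA and inserted by a dedicated machinery, whereas Gpx7 and Gpx8 carry cysteine at the same place.

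This difference in the active site can be read from the reference coding sequences. Below are 45 bases of each coding sequence, 5′ to 3′ on the coding strand, from the GENCODE M21 transcripts (GRCm38) matched to the most abundant RefSeq transcript of each gene. They are shown because selenium use divides the 5 peroxidases into groups of 3 and 2, and capitals mark the active-site codon.
Gpx1: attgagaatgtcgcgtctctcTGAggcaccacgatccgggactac
Gpx3: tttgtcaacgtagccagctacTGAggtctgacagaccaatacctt
Gpx4: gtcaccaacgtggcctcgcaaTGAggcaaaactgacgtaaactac
Gpx7: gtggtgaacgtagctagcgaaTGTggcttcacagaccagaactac
Gpx8: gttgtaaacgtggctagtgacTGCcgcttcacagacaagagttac
The selenocysteine codons lie at chr9:108339451-108339453 in Gpx1 (codon 47 of 201), chr11:54907256-54907258 in Gpx3 (codon 73 of 226) and chr10:80054737-80054739 in Gpx4 (codon 73 of 197). All 3 are annotated as selenocysteine. The cysteine codons lie on the minus strand, at chr4:108403430-108403432 in Gpx7 (codon 56 of 186) and chr13:113045661-113045663 in Gpx8 (codon 79 of 209). They were placed by aligning the translated sequences with that of Gpx4. Gpx7 and Gpx8 shared 35 of the 45 bases, the most of any pair, and Gpx1 and Gpx3 shared 21, the fewest.

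Total estimated counts ranged from 37920689 to 42717227 per library. The labels do not say whether a replicate was an animal or a dish, so p-values measure only the spread between these libraries. The library numbers in the labels place the DMSO libraries before the BPS libraries, so a batch following that order and the treatment cannot be told apart. All 14 markers of preadipocytes were detected, among them Pdgfra at 883.5 CPM (counts scaled to library size, the mean of the 10 libraries). Dpp4 and Pi16 were low, at 2.291 and 2.115 CPM. The adipocyte marker Adipoq had 0 to 3 counts per library and Lep and Cidea had 0. Other adipocyte markers were detected, among them Pnpla2 (365 to 460 counts per library), Acsl1 (315 to 387) and Lipe (113 to 182). Markers of macrophages, endothelium and mesothelium were detected at low levels. Markers of mural cells were not all low, with Acta2 at 1188 CPM and Tagln at 795 CPM. Of the macrophage markers, Csf1r was at 0 in all libraries, while Lyz2 had 240 to 467 counts per library, Cd68 88 to 143 and C1qa 48 to 89. The endothelial markers Tek and Cdh5 had 359 to 500 and 106 to 207 counts. Of the mesothelial markers, Msln and Upk3b were at 0, while Krt19 had 312 to 437 counts and Bnc1 155 to 280.

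Under BPS, RNA for the extracellular superoxide dismutase Sod3 fell by 28.2% and RNA for Gpx1 rose by 9.98%. The other 7 enzymes differed by at most 0.107 on the log2 scale and did not pass the test. So 2 of 9 genes were called, 1 in each direction, in edgeR's quasi-likelihood fit at an adjusted p (Benjamini-Hochberg, over all genes tested) under 0.05. Among all tested genes the test called 4.88%, with 3.06% higher and 1.82% lower in BPS. Higher genes were thus 62.8% of all calls, and 45.9% when library size alone set the scale, where Sod3 and Gpx1 were called in the same directions. The same 2 genes were the ones whose BPS and DMSO values did not overlap, which held for 6.9% of all tested genes. Point estimates were higher in BPS for 5 of the 9 genes and lower for 4.

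**Figure D1:**
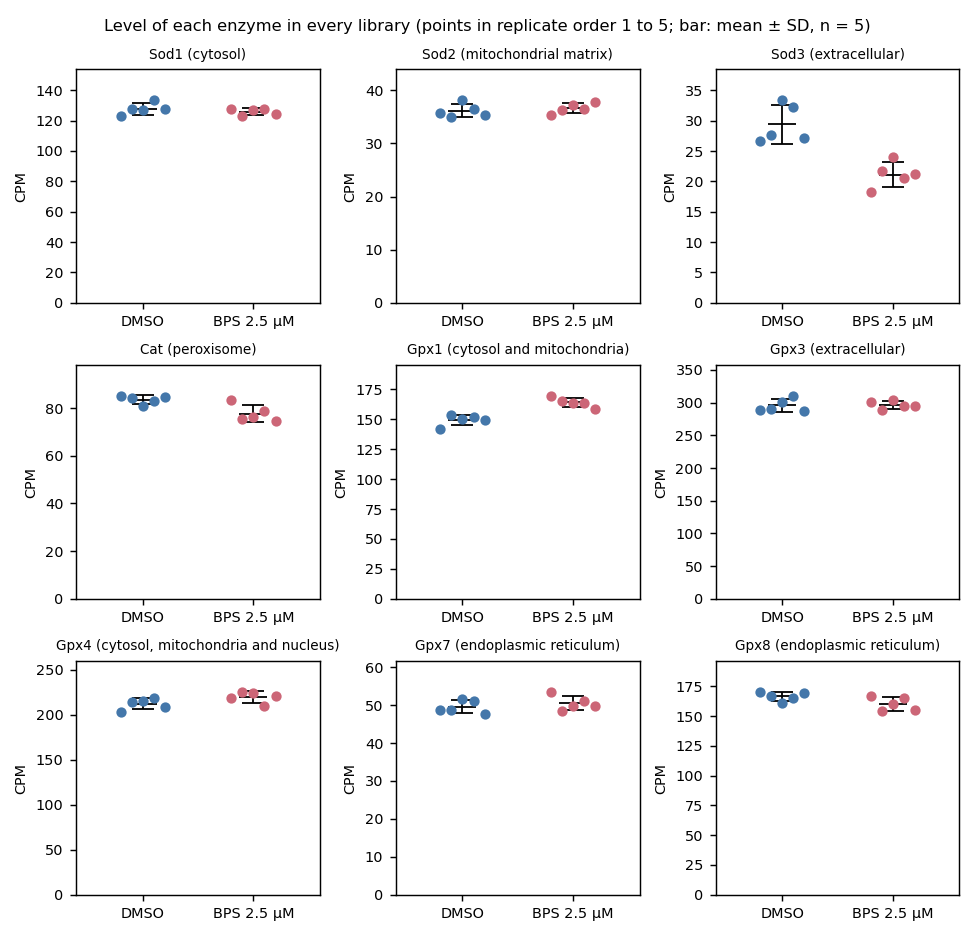
Level of each of the 9 enzymes in CPM (linear axis from 0) in the 5 DMSO libraries (blue) and the 5 BPS libraries (red), with the mean and SD in black. Sod3 lies between 26.61 and 33.44 CPM in DMSO and between 18.26 and 24 CPM in BPS, and Gpx1 between 142.1 and 153.2 CPM and between 158.5 and 169.6 CPM. The ranges of the other 7 genes overlap.

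Sod3, a gene with 2 exons on chromosome 5 (chr5:52363791-52371418, GRCm38), stood at 26.61, 27.6, 33.44, 32.32 and 27.09 CPM in DMSO replicates 1 to 5. In BPS replicates 1 to 5 it stood at 18.26, 21.66, 24, 20.52 and 21.14 CPM. DMSO replicates 3 and 4 were the highest, BPS replicate 1 was the lowest, and every BPS library lay below every DMSO library. The means were 29.4 ± 3.21 and 21.1 ± 2.07 CPM (SD, n = 5 each). The log2 fold change was -0.48 (SE 0.081, 95% interval -0.66 to -0.30), and the adjusted p was 0.00685 in edgeR. Of the 265 genes that fell, 19 (7.17%) fell further. As the cells were sequenced in bulk, fewer cells that express a gene and less of its RNA per cell cannot be told apart.

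Sod3 was also the most variable of the 9 enzymes. Its coefficient of variation within groups was 10.4%, against 2.45% to 3.61% for the other 8. With 943.4 counts per library on average, counting alone gives 3.26%. Of 2792 genes within 1.5-fold of its level, 92.2% varied less, and their median was 4.27%.

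The other superoxide dismutases did not pass the test. Sod1 (5 exons, chr16:90220754-90226329), the copper and zinc enzyme of the cytosol, had 123 to 133.7 CPM in DMSO and 122.8 to 127.8 CPM in BPS. Its log2 fold change was -0.022 (95% interval -0.071 to 0.027, adjusted p = 0.672 by edgeR). Sod2 (5 exons, chr17:13006846-13040063), the manganese enzyme of mitochondria, had 35.04 to 38.2 CPM in DMSO and 35.28 to 37.83 CPM in BPS. The log2 fold change was 0.019 (95% interval -0.045 to 0.083, adjusted p = 0.795 by edgeR). These intervals leave room for changes of Sod1 and Sod2 of up to 0.071 and 0.083 on the log2 scale, well below the change of Sod3. The ratio of Sod3 to Sod1 counts, which does not depend on how libraries are scaled, was 0.212 to 0.263 in DMSO and 0.143 to 0.189 in BPS. The ratio of Sod3 to Gpx3, the other secreted enzyme, was 0.092 to 0.111 and 0.0607 to 0.0789. Neither pair of ranges overlapped. The ratios were chosen after the values had been seen and are given without a test.

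Catalase (13 exons, chr2:103453849-103485160), the haem enzyme of peroxisomes, stood at 85.15, 84.31, 80.69, 83 and 84.59 CPM in DMSO replicates 1 to 5. In BPS replicates 1 to 5 it stood at 83.36, 75.2, 76.16, 78.58 and 74.48 CPM. Of the BPS libraries, 4 lay below all DMSO libraries, and BPS replicate 1 lay among them. The means were 83.55 ± 1.78 and 77.6 ± 3.6 CPM (SD, n = 5 each). The log2 fold change was -0.107 (SE 0.031, 95% interval -0.173 to -0.04), and the adjusted p of 0.0713 by edgeR did not pass. It was called in 2 of 20 alternatives. Without BPS replicate 1 the log2 fold change was -0.134 (adjusted p = 0.00914 by edgeR). The DESeq2 Wald test, which called 7.38% of the genes it tested, gave an adjusted p of 0.0281.

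**Figure D2:**
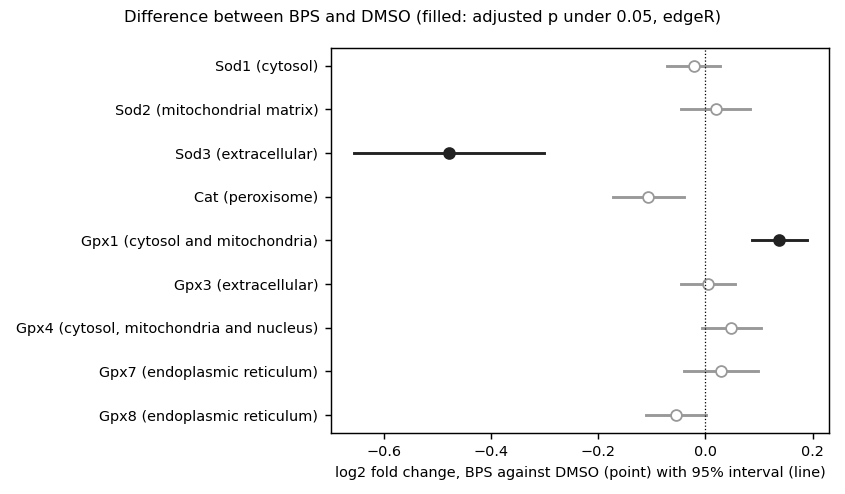
Log2 fold change of BPS against DMSO for each enzyme (points) with its 95% interval (lines), from edgeR's quasi-likelihood fit of 5 against 5 libraries. Filled points mark Sod3 (-0.48) and Gpx1 (0.14), the genes with an adjusted p under 0.05; the interval of Cat (-0.173 to -0.04) also lies below 0 before adjustment over all genes.

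Gpx1 (2 exons, chr9:108338903-108340343), the selenoenzyme that reduces hydrogen peroxide in the cytosol and mitochondria, stood at 142.1, 153.2, 149.9, 151.8 and 149.3 CPM in DMSO replicates 1 to 5. In BPS replicates 1 to 5 it stood at 169.6, 165.3, 163.8, 163.6 and 158.5 CPM. The lowest BPS library lay above the highest DMSO library. The means were 149.3 ± 4.29 and 164.2 ± 3.97 CPM (SD, n = 5 each). The log2 fold change was 0.14 (SE 0.024, 95% interval 0.086 to 0.189), with an adjusted p of 0.00741 by edgeR. This was a small change: of the 447 genes that rose, 262 (58.6%) rose further. Sod3 and Gpx1 thus changed in opposite directions.

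Markers of mural cells, the pericytes and smooth muscle of vessels, moved with the treatment, beside the changes of Sod3 and Gpx1. The summed level of the 10 markers was 1746 to 1867 CPM in DMSO and 2253 to 2410 CPM in BPS without overlap. Of 9 tested, 4 rose (Acta2, Tagln, Des and Cspg4) and 0 fell, and most of the sum came from Acta2 and Tagln. All 9 tested had a point estimate above 0. The other 6 markers ranged from Notch3, with 524 to 632 counts per library, through Rgs5 (109 to 157), Myh11 (58 to 102), Abcc9 (26 to 58) and Kcnj8 (6 to 20) to Higd1b (0 to 2). Cspg4 had 1412 to 1676 counts (edgeR adjusted p = 0.0467). The 8 mesothelial markers summed to 13.14 to 16.78 CPM in DMSO and 17.33 to 19.16 CPM in BPS. Of 3 tested, 1 was called (Krt19, higher), and Msln and Upk3b were at 0. The other tested mesothelial markers went opposite ways and did not pass. Bnc1 leaned up by 0.304 in log2 ratio (95% interval 0.047 to 0.561, edgeR adjusted p = 0.181). Wt1, with only 14 to 41 counts per library, leaned down with -0.591 (95% interval -1.065 to -0.118, edgeR adjusted p = 0.155). The 14 preadipocyte markers summed to overlapping ranges, but most of that sum came from Col1a1 (21870 CPM). By edgeR 3 of them rose (Cd34, Thy1 and Itgb1) and 0 fell, with 4 at an unadjusted p under 0.05 and 4 called by DESeq2. Point estimates were higher for 9 and lower for 5. Among the lower was Pdgfra, with a log2 fold change of -0.066 (95% interval -0.109 to -0.024, adjusted p = 0.0777 by edgeR). The sums of macrophage, endothelial and adipocyte markers overlapped. Of their 10, 10 and 4 tested genes, 0 were called by edgeR or DESeq2, and 1 adipocyte marker had an unadjusted p under 0.05. The part of these marker changes in the results for Sod3 and Gpx1 was not tested.

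The other selenium-dependent peroxidases did not pass the test. Gpx4 (7 exons in its leading transcript, chr10:80047166-80056439), the enzyme for lipid hydroperoxides, had 203.1 to 219 CPM in DMSO and 209.4 to 225.6 CPM in BPS. Its log2 fold change was 0.048 (95% interval -0.006 to 0.103, adjusted p = 0.335 by edgeR). Gpx3 (5 exons, chr11:54902453-54910377), the secreted peroxidase found in blood plasma, had 287.8 to 310.5 CPM in DMSO and 289.2 to 304.2 CPM in BPS. Its log2 fold change was 0.005 (0.0047; 95% interval -0.046 to 0.056, adjusted p = 0.945 by edgeR), and the sign of this value changed in 6 of 20 alternatives. The ratio of Gpx1 to Gpx4 counts was 0.693 to 0.714 in DMSO and 0.718 to 0.781 in BPS, so the ratio differed between groups without overlap, again described without a test.

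The cysteine peroxidases of the endoplasmic reticulum did not pass the test either. Gpx7 (3 exons, chr4:108400390-108406961) had 47.75 to 51.61 CPM in DMSO and 48.54 to 53.54 CPM in BPS, a log2 fold change of 0.029 (95% interval -0.04 to 0.098, adjusted p = 0.691 by edgeR). Gpx8 (3 exons, chr13:113042753-113046410) had 160.6 to 170.4 CPM in DMSO and 154 to 167.2 CPM in BPS. Its log2 fold change was -0.054 (95% interval -0.111 to 0.002, adjusted p = 0.288 by edgeR). The ratio of Gpx7 to Gpx8 counts overlapped between the groups, with 0.282 to 0.321 in DMSO and 0.31 to 0.321 in BPS. The remaining family members Gpx2, Gpx5 and Gpx6 were in the count table, but their counts were too low to pass the filter, so they were not compared.

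**Figure D3:**
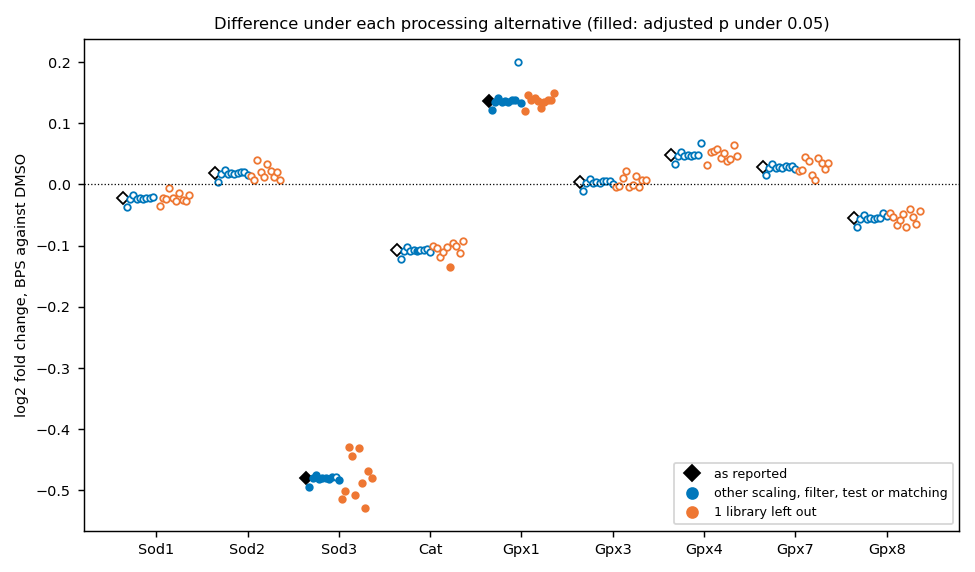
Log2 fold change of BPS against DMSO for each enzyme as reported (black diamonds), under other scaling, filters, tests and accession matching (blue) and with 1 library left out (orange). Filled symbols have an adjusted p under 0.05. Sod3 spans -0.529 to -0.429, Gpx1 0.119 to 0.2 and Cat -0.134 to -0.092, and Cat is filled in 2 of 20 alternatives.

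The calls for Sod3 and Gpx1 each held in 19 of 20 alternatives, among them all 10 fits that left out 1 library. The exception for both was the test of transcripts without summing. Of the 9 genes, 5 had a single RefSeq transcript in the table and 4 had several, 15 transcripts in all, of which 14 were tested. In that test 0 of the 14 were called by edgeR, against 0.335% of 37588 transcripts tested. At an unadjusted p under 0.05 there were 4, limma-voom called 0 (0.338% of all transcripts), and DESeq2 called 3 (3.74% of all transcripts), the leading transcripts of Sod3, Cat and Gpx1. Sod3 has 1 transcript, so its counts were the same in both tests. In the transcript test its log2 fold change was -0.48 (-0.4776), its SE 0.09 in place of 0.081, its unadjusted p 0.000396 in place of 8.11e-05 and its adjusted p 0.0827 by edgeR.

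Gpx1 counts were divided among 3 transcripts, and the division varied more than the sum. The leading transcript held 77.9% to 94.1% of the gene's counts in DMSO and 84.1% to 95% in BPS. The second held 4.94% to 20.5% in DMSO and 4.66% to 15.1% in BPS, from 264 to 1211 and from 282 to 875 counts, a 4.59-fold and a 3.1-fold span between replicates of 1 group. DMSO replicate 5 and BPS replicates 3 and 5 were the low libraries. The sum over the gene varied within groups by only 2.66% (coefficient of variation). The leading transcript had 119.3 ± 8.18 CPM with DMSO and 137.1 ± 5.95 CPM with BPS (SD, n = 5 each), on the scale of the transcript fit, or 0.20 in log2 ratio (SE 0.049, edgeR adjusted p = 0.224). The program that made the counts splits reads between overlapping transcripts by estimation, and the part of this in the spread was not tested.

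**Figure D4:**
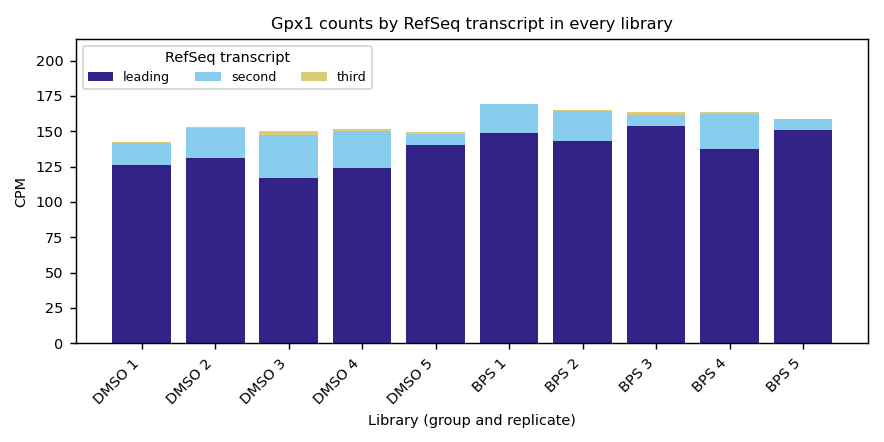
Gpx1 level (CPM) in each of the 10 libraries, stacked by RefSeq transcript. The full bars span 142.1 to 153.2 CPM in DMSO and 158.5 to 169.6 CPM in BPS, while the second transcript (light blue) holds 264 to 1211 counts in DMSO and 282 to 875 counts in BPS.

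Gpx4 was carried by 1 transcript, with 94.9 ± 1.27% of the gene's counts in DMSO and 96.1 ± 0.676% in BPS (SD, n = 5 each). A second Gpx4 transcript encodes a longer protein, with a coding sequence of 759 bases against 591. It held 4.95 ± 1.24% in DMSO and 3.81 ± 0.714% in BPS, and its log2 fold change was -0.33 (SE 0.196, adjusted p = 0.904 by edgeR). The leading transcripts of Gpx3 and Gpx8 held at least 99.4% and 95.1% of their genes' counts in every library. No exon of another GENCODE gene overlapped the leading transcript of any of the 9 genes. Near-identical pseudogenes exist for Gpx4 (Gpx4-ps2, 99.738% identical over 762 bases) and Sod1 (Gm8566, 97.849% identical over 465 bases). Another Gpx4 copy, AC122253.3, was 95.14% identical over 535 bases. These 3 were not analysed here, so reads from them cannot be told apart from those of the parent genes. Sod2 shared stretches of 145 to 193 of its 5861 bases, at 95.062% to 96.835% identity, with transcripts of other genes, some of them expressed (Dld, Zmynd8 and Syt11), so a part of its reads is uncertain too.

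RNA levels can be compared between genes only per length. In CPM per kilobase of the GENCODE transcript, Gpx4 was the highest in DMSO, at 221.4 ± 6.54 (SD, n = 5), and had the highest level in BPS as well. Sod1 followed at 199.3 ± 5.96 and Gpx3 at 185.5 ± 6.16, and the DMSO ranges of Sod1 and Gpx3 overlapped. Then came Gpx8 at 159.8 ± 3.72 and Gpx1 at 139.2 ± 4, which did not overlap in DMSO but did in BPS, where they stood at 153.9 ± 5.54 and 153.1 ± 3.71. Gpx7 (38.5 ± 1.28) and Cat (31.97 ± 0.682) lay well below. Sod3 and Sod2 were the lowest. In DMSO Sod3 stood at 7.87 ± 0.859 and Sod2 at 6.17 ± 0.215 without overlap, and in BPS their ranges, 4.885 to 6.421 and 6.019 to 6.455, overlapped. The transcript lengths used by the authors were not given in the sources used here, so close neighbours in this order may change places with other lengths.

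By this measure Sod1 made up 93.4 ± 0.397% of superoxide dismutase RNA in DMSO and 94.3 ± 0.348% in BPS (SD, n = 5 each). The share of Sod3 was 3.68 ± 0.333% in DMSO and 2.71 ± 0.271% in BPS, while that of Sod2 was 2.89 ± 0.111% and 3 ± 0.101%. Among the glutathione peroxidases, Gpx1 made up 18.7 ± 0.34% in DMSO and 20.1 ± 0.316% in BPS, and Gpx4 29.7 ± 0.391% and 30.08 ± 0.913%. The summed superoxide dismutase level ranged from 205.1 to 223.5 CPM per kilobase in DMSO and from 203.6 to 210.8 in BPS. These shares describe RNA only and were not tested. Those of the superoxide dismutases rest on GENCODE lengths of 641 (Sod1), 5861 (Sod2) and 3738 (Sod3) bases, and other lengths would change them. The SD covers only the spread between libraries.

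Genes that supply or surround these enzymes were taken from 11 lists, 120 genes in all, of which 105 were tested. Of these, 3 rose and 5 fell, or 7.62%, against 4.88% of all tested genes. The median log2 fold change of all tested genes was 3e-04. The calls came from 5 of the lists, and the lists share some genes.

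For metal supply, 9 of 10 genes were tested, 0 rose and 1 fell by edgeR (2 at an unadjusted p under 0.05, and 1 call by DESeq2), with a median of -0.029. The gene that fell was Slc39a14, which carries zinc, manganese and iron into cells, from 102.2 ± 2.49 to 89.7 ± 2.45 CPM (SD, n = 5 each). Its log2 fold change was -0.19 (SE 0.024, adjusted p = 0.00104 by edgeR), and its BPS and DMSO values did not overlap. Ccs, the chaperone that loads copper into Sod1, had 20.28 ± 0.61 and 21.1 ± 0.417 CPM (adjusted p = 0.361). Atox1 and Atp7a, which bring copper to the secretory pathway where Sod3 is loaded, had log2 fold changes of 0.03 (SE 0.037) and -0.054 (SE 0.033), with adjusted p of 0.74 and 0.437 by edgeR.

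The list for selenoprotein synthesis joins genes that make and insert selenocysteine with genes of selenium supply (Lrp2 and Lrp8, receptors for selenoprotein P, and Scly, which recycles selenium). Of its 11 genes, 0 were called by edgeR, 0 had an unadjusted p under 0.05 and 0 were called by DESeq2, with a median log2 fold change of 0.026. Secisbp2, which binds the selenocysteine insertion element, had 17.3 ± 0.976 CPM with DMSO and 16.6 ± 1.08 CPM with BPS (SD, n = 5 each). Of 17 other selenoproteins tested, 0 were called by edgeR, 1 had an unadjusted p under 0.05 and 1 was called by DESeq2, and the median was 0.017. Peroxiredoxins and thioredoxins, which also remove peroxides, gave 0 calls among 11 genes by edgeR, 3 at an unadjusted p under 0.05 and 1 by DESeq2, with a median of 0.006.

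Glutathione supply had the most calls, 1 gene higher and 2 lower of 10 tested by edgeR (6 at an unadjusted p under 0.05, and 5 called by DESeq2), with a median of 0.0145. Gsr, which returns oxidized glutathione to its reduced form, stood at 17.56 ± 0.579 CPM with DMSO and 14.7 ± 0.537 CPM with BPS (SD, n = 5 each). Its log2 fold change was -0.26 (SE 0.038, adjusted p = 0.00299 by edgeR). Gclm, a subunit of the enzyme that starts glutathione synthesis, fell with -0.14 (SE 0.024, adjusted p = 0.00675). Slc7a11, which imports cystine for that synthesis, rose from 24.3 ± 1.05 to 27.3 ± 1.35 CPM, or 0.17 in log2 ratio (SE 0.041, edgeR adjusted p = 0.0411), with overlapping values.

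In peroxisomes, where catalase acts, 0 of 16 biogenesis genes were called by edgeR (1 at an unadjusted p under 0.05, 0 by DESeq2), with a median of -0.004. Of 9 peroxisomal producers of hydrogen peroxide 3 were tested and 0 were called (1 at an unadjusted p under 0.05, 0 by DESeq2). Among 10 genes of oxidative protein folding, the process beside Gpx7 and Gpx8, 1 rose and 0 fell by edgeR (2 at an unadjusted p under 0.05, 2 by DESeq2), with a median of 0.006. Qsox1, a sulfhydryl oxidase that yields hydrogen peroxide, rose from 233.2 ± 2.54 to 252.2 ± 5.69 CPM (SD, n = 5 each), or 0.11 in log2 ratio (SE 0.018, edgeR adjusted p = 0.00401). P4hb, protein disulfide isomerase, stood at 1925 and 1913 CPM (adjusted p = 0.777).

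Around Gpx4, 8 of 10 genes of lipid peroxidation and ferroptosis were tested, 1 rose and 0 fell by edgeR (2 at an unadjusted p under 0.05, 1 by DESeq2), with a median of -0.0215. The gene that rose was Ptgs2, cyclooxygenase 2, from 51.1 ± 5.57 to 65.2 ± 5.2 CPM (SD, n = 5 each), or 0.35 in log2 ratio (SE 0.074, edgeR adjusted p = 0.0202). Acsl4, which supplies the membrane with oxidizable fatty acids, had 84.29 CPM with DMSO and 84.31 CPM with BPS. Of 14 tested regulators of antioxidant genes, 0 rose and 2 fell by edgeR (2 at an unadjusted p under 0.05, 2 by DESeq2), with a median of -0.052. They were Nfe2l2, the transcription factor NRF2, with -0.14 (SE 0.024, adjusted p = 0.00714 by edgeR), and Ahrr, which represses the aryl hydrocarbon receptor, with -2.05 (SE 0.151, adjusted p = 2.37e-05 by edgeR). The level of Ahrr was low, at 2.04 ± 0.2975 CPM with DMSO and 0.4931 ± 0.08244 CPM with BPS (SD, n = 5 each). Keap1, the inhibitor of NRF2, had 86.1 and 84.1 CPM (adjusted p = 0.615).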

How the data were processed

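Bulk RNA of 10 libraries, 5 DMSO and 5 BPS, was analysed. The authors deposited estimated counts per RefSeq transcript, made with kallisto 0.42.4 per the submitters' processing notes. Its index and strandedness option, and the build, were not given in the sources used here. These estimated counts, not scaled to a common depth, were summed per gene through a RefSeq table (GRCm38.p6, names only), matching accessions without version, and rounded. This assigned 86722 of 107384 transcripts and 93.1% of counts. Genes passing filterByExpr (14597) were scaled by TMM and tested with edgeR's quasi-likelihood test, adjusted over all of them at 0.05. The SE is the unshrunken log2 fold change divided by the square root of F, and intervals are 95%, unadjusted. CPM uses TMM-scaled library sizes. Between replicates of a group, chi-square per degree of freedom was 4.13 to 8.77, above the sampling noise, and no library repeated another. The code was tested on simulated data.

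Named genes were the 9 enzymes, up to 3 called genes per list with the smallest p, and the 3 genes nearest each called enzyme. Other genes shown as unchanged examples were chosen after their values were seen. The members and lists were chosen with earlier results of these data known. Alternatives were other scaling, filters and tests, a replicate block, unsummed transcripts, exact accession versions and leaving out each library. Copies were sought with BLASTN 2.17.0 (at least 95% identity over 100 bases). Tools were edgeR 4.0.16, DESeq2 1.42.0 and limma 3.58.1 in R 4.3.3, and pandas 2.3.3, numpy 2.4.6, Biopython 1.88 and matplotlib 3.10.9 in Python 3.11.15.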

Additional observations from a re-analysis of the deposited data

How the results depend on the processing

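All 9 enzymes except Gpx3 kept their direction in every alternative in which they were tested. The log2 fold change of Gpx3, 0.0047, was -0.0101 with library size alone and -0.0049 to 0.0218 with 1 library left out. The 2 called enzymes stayed 2 or became 3 except in the unsummed transcript test, which called 0 of the 9 leading transcripts and 126 of 37588 transcripts. In that test adjusted p was 0.0827 for Sod3 and 0.224 for Gpx1 by edgeR. The calls among all transcripts of the enzymes were 0, and 3 with DESeq2. The 712 called genes became 374 with the replicate block and 328 with exact accession versions, where Sod1 and Gpx4 could not be tested and 5 list genes, in place of 8, were called. With 1 library left out, 449 to 774 genes, 2 to 3 enzymes and 6 to 12 list genes were called, and the share of Sod3 differed by -0.845 to -1.053 percentage points. Called genes were fewer by over 1.5 times when DMSO replicate 2 (449) or BPS replicate 2 (462), 3 (465) or 4 (462) was left out. Leaving out BPS replicate 1 was the only omission that raised the number, to 774, and Cat was then called. The labels do not say whether the replicate numbers pair the libraries. Same-numbered deviations correlated at 0.115, 0.018, -0.077, 0.079 and -0.102. Each library was compared with the 5 libraries of the other group, and 5 of 10 correlated best with their own number. These values do not settle whether the numbers mark pairs. With the block both calls held (adjusted p 0.00431 for Sod3 and 0.0442 for Gpx1 by edgeR). Higher genes were 62.8% of all calls, and 45.9% with library size alone, where both enzymes stayed called (adjusted p 0.00514 and 0.0166). Differences below about the half-width of each unadjusted interval could not be told from 0 at this depth and replication. A call after adjustment over all genes needed a larger difference. Cat, at -0.107 with an interval of -0.173 to -0.04, was not called (adjusted p = 0.0713 by edgeR). The cause of these shifts was not tested.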

Other observations

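The genes whose pattern over the 10 libraries lay nearest to that of Sod3 were sought among 9208 genes with a mean of at least 10 CPM. The measure was the root mean square distance in log2 CPM after centring each gene on its own DMSO mean. For Sod3 the nearest were Prg4 (proteoglycan 4, a lubricating glycoprotein) at 0.0783, Dhrs3 (a retinal reductase) at 0.111 and Ptx3 (a secreted pentraxin) at 0.119, against a median distance of 0.366 over all genes compared. Mean levels with DMSO and with BPS were 28.6 and 21.4 CPM for Prg4, 69.2 and 52.6 CPM for Dhrs3, and 116 and 77.1 CPM for Ptx3. Like Sod3, Prg4 was highest in DMSO replicate 3 (33.01 CPM) and lowest in BPS replicate 1 (17.15 CPM). The same libraries were the highest and lowest for Dhrs3 (80.34 and 41.38 CPM) and Ptx3 (132.3 and 66.46 CPM). For Gpx1 the nearest were Pdlim1 and Emd, both at 0.0241, and Haus7 at 0.0286, against a median of 0.119. Pdlim1, a cytoskeletal adaptor, averaged 81.9 CPM with DMSO and 89.9 CPM with BPS, Emd, the nuclear envelope protein emerin, at 62 and 67.1 CPM, and Haus7, part of the augmin complex of the spindle, at 43.7 and 47.5 CPM. These genes were picked for their likeness, so it is a description with no test.

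None of 64 groups of 5 values (the 9 enzymes, their transcripts and the named genes, in each treatment) held an outlying library in Dixon's test (95% critical value), where chance gives about 3.2. That test takes each gene or transcript alone and does not compare whole libraries. Over all genes, BPS replicate 1 differed most from its group. Its chi-square per degree of freedom was 8.77 against BPS replicate 5, 8.39 against 2, 6.53 against 3 and 5.1 against 4. Pairs without it had at most 5.7.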
